A study of Mus musculus with 8 samples.

Results

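The precursors of miR-486 and miR-378 were measured in myoblasts, the muscle precursor cells that divide and then fuse into fibres, from old and young mice. Of the 1181 precursors with a value, 6 were taken by name: mmu-mir-486, mmu-mir-3107 at the same locus, and mmu-mir-378a, mmu-mir-378b, mmu-mir-378c and mmu-mir-378d, written below without the species prefix. All mice were C57BL/6J. Of the 8 small RNA libraries 4 were labelled old and 4 young, and the sources used here state no age in months and no treatment. The libraries are called old 1 to old 4 and young 1 to young 4, as their titles number them. The titles do not say whether each library came from a separate mouse, so n below counts libraries. Values are log2 abundances as deposited, per precursor and not per arm. They step as reads scaled to precursor length and library size do, so that levels of different precursors are read here per length.

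miR-486 is made from an intron of Ank1, the gene of an ankyrin that has a muscle form anchored at the sarcoplasmic reticulum. It is known to lower the transcription factor Foxo1 in muscle, and it is also abundant in red blood cells. miR-378a is made from an intron of Ppargc1b, the gene of a coactivator of mitochondrial genes, and is known in mouse myoblasts to favour differentiation by lowering the repressor MyoR. Both are released from host transcripts that are themselves expressed in muscle.

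Most of these precursors lie in introns, but not all do so on the strand of the gene around them. mir-486 lies on chromosome 8 (23142555 to 23142682, plus strand, mm10), on the strand of Ank1 and in its intron. mir-3107 lies inside it on the other strand (23142573 to 23142662). mir-378a lies on the strand of Ppargc1b, in an intron. mir-378b, on chromosome 11 (88352773 to 88352864, plus strand), and mir-378c, on chromosome 14 (46954830 to 46954928, minus strand), lie in introns of Msi2 and Samd4 but opposite to those genes. mir-378d, on chromosome 10 (126710282 to 126710391, minus strand), overlapped no gene of the GENCODE annotation other than its own.

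Of the 6 precursors 3 were matched in the RefSeq table, mir-378b, mir-378c and mir-378d; sequences of mir-486, mir-3107 and mir-378a are not used here. The 3 are shown because they differed in level and in their pattern over the libraries while their mature RNAs are nearly the same. They are RefSeq sequences of GRCm38.p6, read 5′ to 3′, with the seed, bases 2 to 8, in capitals:
mmu-miR-378b: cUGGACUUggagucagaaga
mmu-miR-378c: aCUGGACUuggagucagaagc
mmu-miR-378d: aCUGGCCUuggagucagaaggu
Counted from the 5′ end of miR-378c, miR-378d carries A6C, which falls in the seed, and C21G. miR-378b starts 1 base later than miR-378c, which shifts its seed by 1 base, and over the 20 shared positions it differs from miR-378c only by C21A. The run of bases common to miR-378b and miR-378c is 19 long. These 3 thus differ in seed from each other; their seeds were not compared with that of mir-378a.

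The hairpins place the mature RNA on different arms, shown here with the mature part in capitals:
mir-378b: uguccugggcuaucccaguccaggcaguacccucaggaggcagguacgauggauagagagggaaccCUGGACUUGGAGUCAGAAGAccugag
mir-378c: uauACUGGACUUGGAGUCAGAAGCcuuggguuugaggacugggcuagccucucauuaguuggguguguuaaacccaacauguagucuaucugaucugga
mir-378d: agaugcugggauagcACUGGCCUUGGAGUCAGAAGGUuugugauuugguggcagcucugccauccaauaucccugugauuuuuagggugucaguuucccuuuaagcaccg
In mir-378c and mir-378d it begins at base 4 and base 16, on the 5′ side, and in mir-378b at base 67, on the 3′ side. A read confined to the 19 bases common to miR-378b and miR-378c would match both, and how such reads were assigned is not stated in the labels. Reads shared with mir-378a, the most abundant of the mir-378 precursors, were not tested for, so the separate levels of all 4 are uncertain.

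The libraries held 25.1 to 39.4 M reads if the values are RPKM, and 588 to 635 precursors were above 0 in each. Across the 359 precursors compared, 0 differed between old and young libraries at an adjusted p of 0.05 in limma, which is 0% of those tested. At an unadjusted p under 0.05 there were 4 (1.11%), and 3 had groups that did not overlap (0.836%). The labelled cell type was checked on miRNA markers: the muscle miRNA mir-206 was abundant, at 15.81 on average, while the muscle mir-1a copies were at most 3.22. However, mir-133a-1, which lies in introns of the same host as mir-1a-2, Mir133a-1hg, averaged 13.45. This gap within 1 host was not tested. The red cell marker mir-144 and 2 of 4 white cell markers were listed at 0 in all 8 libraries, whereas all 5 fibroblast and smooth muscle markers were present; the values of these lists are given beside mir-486. In bulk libraries, fewer cells of a type and less RNA per cell cannot be told apart.

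Of the 6 precursors 0 passed the test between old and young mice, and 0 had groups that did not overlap. All 6 passed the filter on low values. Their order by level was the same in all 8 libraries: the mir-486 locus first, then mir-378a, mir-378c, mir-378d and mir-378b. mir-486 exceeded mir-378a by 3.31 to 5.01 on the log2 scale, mir-378a exceeded mir-378c by 3.41 to 4.04, mir-378c exceeded mir-378d by 2.51 to 4.34, and mir-378d exceeded mir-378b by 4.37 to 6.75. Each of these steps had the same sign in all 8 libraries.

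**Figure D1:**
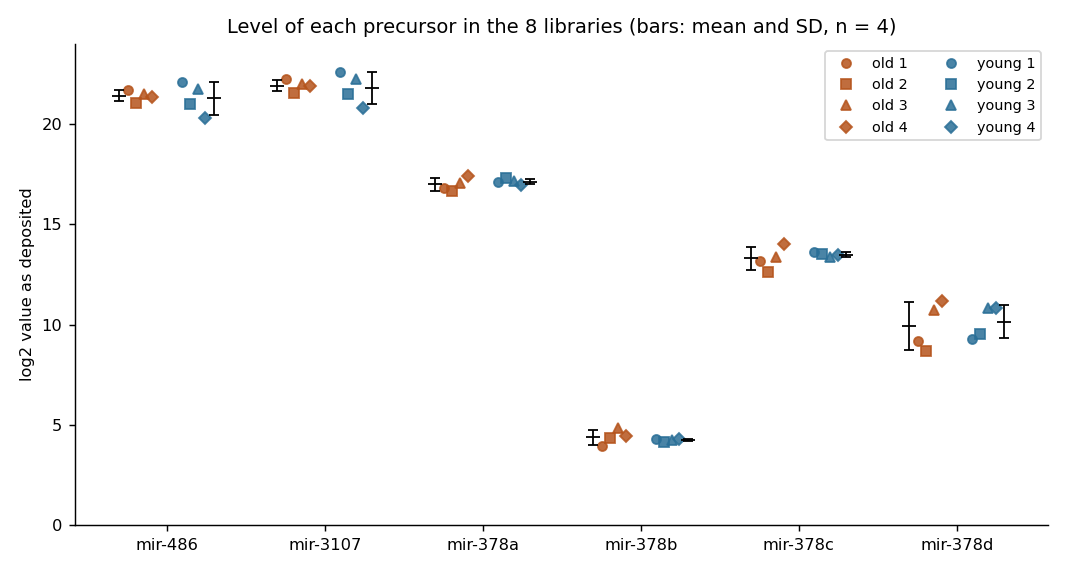
Deposited log2 value (vertical axis) of the 6 precursors in each library; points are libraries, old in brown on the left of each pair and young in blue on the right, and bars give the mean and SD of 4 libraries. The groups overlap for every precursor; mir-486 has its lowest point in young 4, and mir-378d splits into libraries 1 and 2 below and 3 and 4 above in both groups.

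mir-486 had log2 values of 21.72, 21.06, 21.50 and 21.37 in old 1 to old 4, against 22.11, 20.99, 21.74 and 20.29 in young 1 to young 4. The old libraries lay within the range of the young ones, which held both the highest value, in young 1, and the lowest, in young 4. The means were 21.41 ± 0.28 in old mice and 21.28 ± 0.81 in young mice (SD, n = 4 each); old minus young was 0.13 (SE 0.40, 95% interval -0.78 to 1.04, limma adjusted p = 0.995). The sign of this difference rested on young 4: without it the difference was -0.20 (limma, adjusted p = 0.850). mir-3107 differed from mir-486 by 0.51 to 0.52 in every library, which is the log2 ratio of their lengths, 0.51. The file therefore lists in effect the same reads under both names, and mir-3107 (21.93 ± 0.28 in old mice and 21.80 ± 0.81 in young mice, n = 4 each) adds no measurement of its own.

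These values made the locus the largest single part of each library. If the values are RPKM, mir-486 held 44.2%, 28.0%, 38.0% and 34.7% of the fitted library size of old 1 to old 4, against 57.9%, 26.7%, 44.8% and 16.4% in young 1 to young 4. That size is not the number of reads on the listed precursors. Of the length-weighted sum over precursors, without mir-3107, mir-486 held 60.2%, 48.2%, 52.8% and 44.5% in old 1 to old 4. In young 1 to young 4 it held 64.8%, 38.6%, 57.5% and 24.6% of that sum. Young 1 and young 4 were the extremes, and the old libraries lay between them. Of the summed linear values of all 1181 precursors mir-486 took 25 ± 2.65% in old mice and 22.7 ± 7.59% in young mice (n = 4 per group, exact permutation test, two-sided p = 0.600, adjusted p = 0.83 over 8 tests). That sum counts the locus under both names. With mir-3107 left out of the sum the share of mir-486 was 47.9%, 36.1%, 40.4% and 32.6% in old libraries and 52.6%, 27.9%, 45.0% and 16.4% in young ones, so that the young libraries spanned more than the old ones on both sides.

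**Figure D2:**
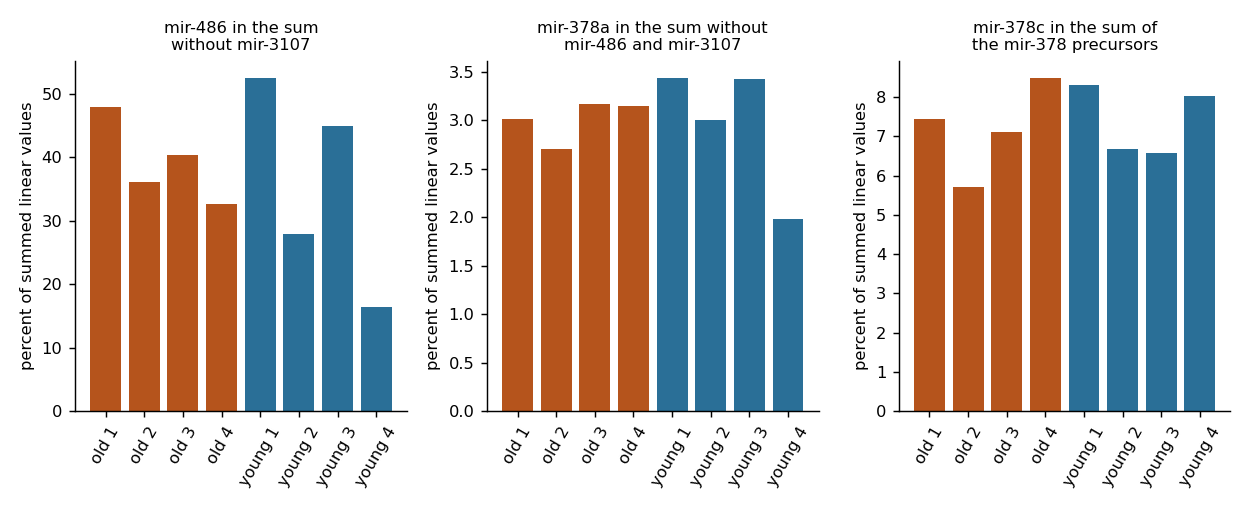
Percent of summed linear values (vertical axes, from 0) held by mir-486 in the sum without mir-3107, by mir-378a in the sum without that locus, and by mir-378c in the sum of the mir-378 precursors; each bar is 1 library, old in brown and young in blue. In young 4 the first bar, 16.4%, and the second, 1.98%, are the lowest of their panels.

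A locus of this size bears on every other value of a library scaled to its total, and mir-486 was therefore also set against precursors within each library. The one with the steadiest ratio to it was mir-206, made in skeletal muscle and raised when myoblasts differentiate. Among 357 precursors compared, the SD of the log2 ratio of mir-206 to mir-486 over the 8 libraries was the smallest, 0.31, against a median of 1.06. mir-206 had 16.14, 15.83, 15.88 and 15.76 in old libraries, against 15.92, 15.67, 16.52 and 14.78 in young ones. It was lowest in young 4, as mir-486 was, but the highest values of mir-206 and mir-486 fell in different libraries. In young 1, where mir-486 was highest at 22.11, mir-206 was at 15.92 and their log2 ratio was at its lowest, -6.19. The SD of this ratio without young 4 was not computed, so how far its rank rests on that library was not tested. The next in order were mir-501 (SD of the log2 ratio 0.44), mir-3102 (0.49), mir-1963 (0.58) and mir-532 (0.59). By place, mir-501 and mir-532 are in introns of the X-linked Clcn5, and mir-1963 is in an intron of Ryr1, the gene of the calcium release channel of muscle. These SDs describe 8 libraries only, and precursors that vary little come close to any profile that varies little. The SDs for mir-1963 and mir-532 were above that of mir-486 itself, 0.56, so their positions are no sign of a shared profile.

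Other muscle miRNAs followed mir-486 less closely than mir-206 in this measure. The SD of the log2 ratio to mir-486 was 0.76 for mir-133a-1, 0.75 for mir-133a-2 and 1.03 for mir-133b. It was 1.46 for mir-499 and 2.13 for mir-208b, the last being listed at 0 in old 4 and young 4. However, mir-499 and mir-208b averaged only 3.52 and 2.70 over the 8 libraries, so few reads lie behind their values. Of the 9 listed muscle precursors 6 passed the filter on low values, with mir-133a-1 and mir-133a-2 counted separately. Over all 359 precursors 165 had a higher mean and 194 a lower mean in old libraries. Of the 6 muscle precursors 3 had a higher mean and 3 a lower mean in old libraries, and 0 passed the test. Their median difference was 0.06, beside -0.05 for all 359 precursors, and without young 4 it was -0.56, beside 0.17 for all. mir-1a-1 and mir-1a-2, copies of the muscle miRNA miR-1, had at most 3.22 in any library and were both at 0 in young 4, while mir-133a-1, which ran 0.60 to 0.64 above its copy mir-133a-2 in every library and may share reads with it, was at 13.34 ± 0.65 in old mice and 13.57 ± 1.25 in young mice (SD, n = 4 each).

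Markers of cells other than myoblasts were read beside mir-486, since red cells carry much of it. Of the red cell markers mir-144 was at 0 in all libraries, and mir-451a was at 0 in every library but young 1, where it was 0.89; their summed linear value was 0 in all old libraries and 0 to 1.85 in young ones. mir-486 was at 22.11 in young 1, its highest, and at 21.74 in young 3, where both red cell markers were at 0. Any part of red cells in these values of mir-486 was not tested. Of the 4 white cell markers mir-155, which many cell types make, was at 10.35 to 12.10 over the 8 libraries, mir-150 averaged 3.75 ± 0.58 in old mice and 3.03 ± 1.45 in young mice (SD, n = 4 each), and the other 2 were at 0. The 5 fibroblast and smooth muscle markers were all present, with a summed linear value of 41938 to 58764 in old mice and 24441 to 51299 in young mice. All 5 had a higher mean in old libraries (median difference 0.29, beside -0.05 for all 359 precursors), and 0 passed the test. These are not 5 separate measurements. mir-199a-1 and mir-199a-2 are copies of the same miRNA and may share reads, and mir-199a-2 and mir-214 both lie in exons of Dnm3os. mir-143 and mir-145a lie near each other on chromosome 18 (61649196 to 61649258 and 61647825 to 61647894). Among the 5, mir-143 averaged 15.20 ± 0.31 in old mice and 14.79 ± 0.54 in young ones, and mir-214 12.71 ± 0.54 in old mice and 12.26 ± 0.58 in young ones. The part of such cells in the values of mir-486 was not tested. The endothelial marker mir-126a was in young 4 at its highest, 5.11, against 2.96 to 3.68 in the other young libraries and 3.32 to 4.34 in old ones. Of the 7 epithelial markers mir-205 averaged 5.94 ± 1.49 in old mice and 6.33 ± 0.75 in young mice. The marker mir-203 averaged 3.24 ± 0.42 in old mice and 3.72 ± 0.70 in young ones. Of the others mir-200a and mir-429 were at 0 in all 8 libraries, and mir-200b, mir-200c and mir-141 averaged 0.58, 0.71 and 0.89. The liver marker mir-122 and the 6 neural markers had summed linear values of at most 22.4 in any library.

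mir-378a, on chromosome 18 (61397835 to 61397900, minus strand, mm10), varied little between libraries. Its log2 values were 16.79, 16.67, 17.08 and 17.43 in old 1 to old 4, against 17.10, 17.30, 17.16 and 16.98 in young 1 to young 4. The old libraries reached both below and above all young ones. The means were 16.99 ± 0.34 in old mice and 17.14 ± 0.13 in young mice (SD, n = 4 each); old minus young was -0.14 (SE 0.26, 95% interval -0.74 to 0.45, limma adjusted p = 0.995). By abundance it ran from position 9 in old 4 to position 16 in young 4, and held 0.688% to 1.17% of the fitted library size if the values are RPKM. Its SD over the 8 libraries, 0.25, was the lowest of the 25 most abundant precursors, whose median was 0.52, and was at rank 4 of all 359. That rank depended on the scaling: it was 1 of 25 after rescaling to the total less the mir-486 locus, 5 of 25 after a trimmed-mean rescaling (SD 0.34) and 11 of 25 after a median-ratio rescaling (SD 0.36).

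**Figure D3:**
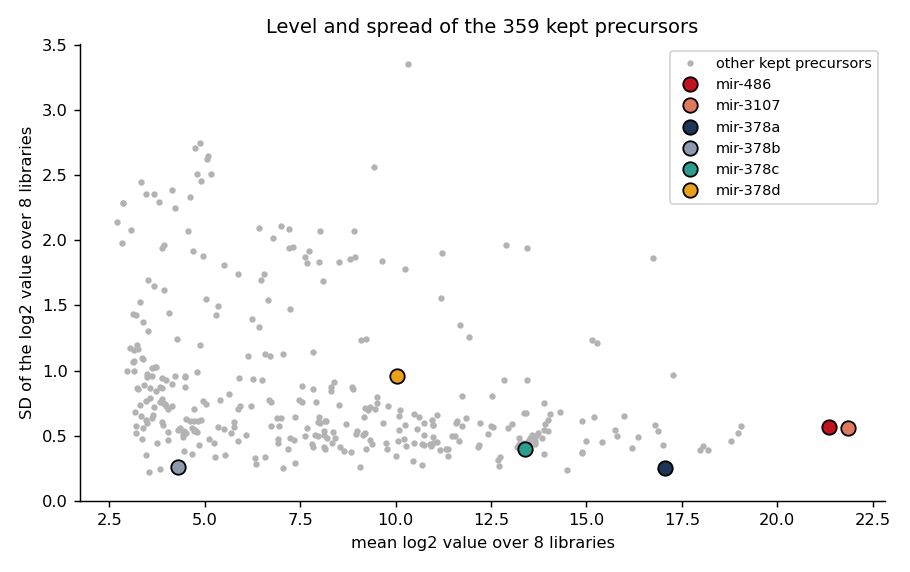
Mean log2 value over the 8 libraries (horizontal axis) and its SD over the 8 libraries (vertical axis) for each of the 359 compared precursors in grey, with the 6 members in colour. mir-378a sits at an SD of 0.25 at the lower edge for its level, mir-378d at 0.96, and mir-486 and mir-3107 at 0.56 at the right end.

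With the mir-486 locus taken out of the sum, the place of young 4 changed. In that sum mir-378a held 3.01%, 2.70%, 3.17% and 3.15% in old libraries, against 3.44%, 3.0%, 3.43% and 1.98% in young ones. Young 4 was then the lowest of the 8 and the other young libraries lay within or just above the old range. Of the summed linear values of all precursors mir-378a held 1.18 ± 0.212% in old mice and 1.24 ± 0.263% in young mice, and the mir-378 precursors together 1.28 ± 0.246% in old mice and 1.35 ± 0.280% in young ones (n = 4 per group, exact permutation test, two-sided p = 0.686 and adjusted p = 0.83 for each).

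The ratio between the lead members of both families does not depend on any scaling by 1 factor per library. The log2 ratio of mir-378a to mir-486 was -4.93, -4.39, -4.42 and -3.94 in old 1 to old 4, against -5.01, -3.69, -4.58 and -3.31 in young 1 to young 4. It was lowest in young 1 and highest in young 4, where mir-486 was at its highest and lowest. The means were -4.42 ± 0.40 in old mice and -4.15 ± 0.78 in young mice; old minus young was -0.27 (n = 4 per group, exact permutation test, two-sided p = 0.543, adjusted p = 0.83), and 0.01 without young 4. The SD of this ratio over the 8 libraries was 0.60, close to the SD of mir-486 itself, 0.56.

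**Figure D4:**
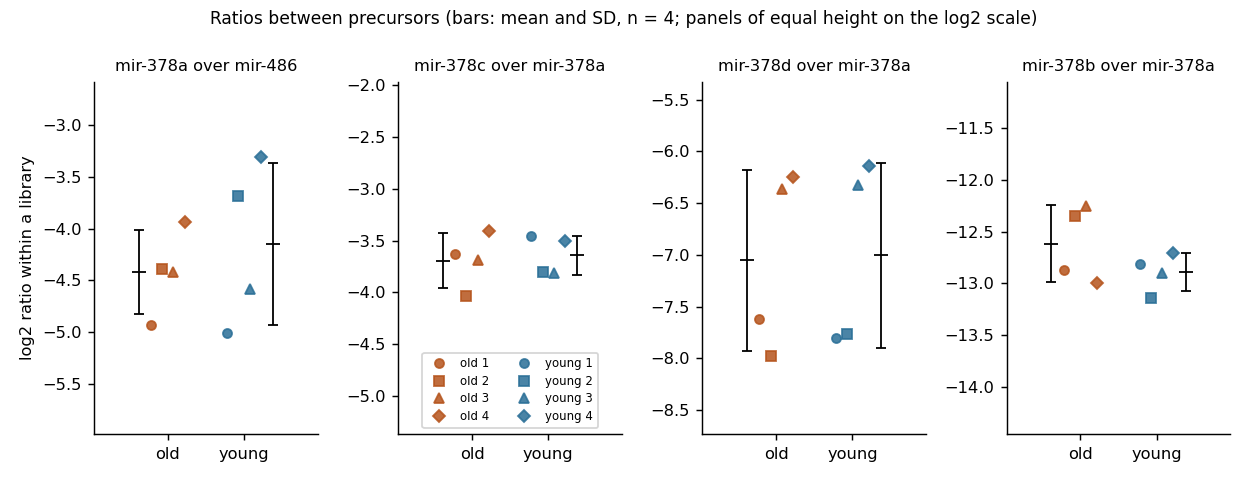
Log2 ratio of 2 precursors within each library (vertical axes, panels of equal height) for mir-378a over mir-486 and for mir-378c, mir-378d and mir-378b over mir-378a; old libraries are on the left in brown and young on the right in blue, with bars for the mean and SD of 4 libraries. The mir-378c ratio is the narrowest, from -4.04 to -3.41, and the mir-378d ratio falls into a lower and an upper pair in each group.

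Among the mir-378 precursors, mir-378c had the steadiest ratio to mir-378a; sharing of reads between them was not tested. mir-378c measured 13.16, 12.63, 13.39 and 14.02 in old 1 to old 4, against 13.64, 13.50, 13.35 and 13.48 in young 1 to young 4. The young libraries lay close together, with old 1 and old 2 below them, old 4 above them and old 3 among them. Its means were 13.30 ± 0.58 in old mice and 13.49 ± 0.12 in young mice (SD, n = 4 each; difference -0.19, SE 0.33, limma adjusted p = 0.995). It made up 7.19 ± 1.15% of the mir-378 sum in old mice and 7.39 ± 0.893% in young mice, while mir-378a made up 92.0 ± 1.48% in old mice and 91.8 ± 0.985% in young ones. The log2 ratio of mir-378c to mir-378a was -3.69 ± 0.26 in old mice and -3.64 ± 0.19 in young mice (n = 4 per group, exact permutation test, two-sided p = 0.743, adjusted p = 0.83).

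mir-378d, whose seed differs from that of mir-378c by A6C, varied most of the 6 over the libraries. It measured 9.17, 8.69, 10.72 and 11.18 in old 1 to old 4, against 9.30, 9.54, 10.84 and 10.84 in young 1 to young 4. In both groups libraries 3 and 4 were high and libraries 1 and 2 low, with no value between 9.54 and 10.72, so that the spread within a group was far wider than the difference between groups. The means were 9.94 ± 1.20 in old mice and 10.13 ± 0.83 in young mice (SD, n = 4 each; difference -0.19, SE 0.64, limma adjusted p = 0.995). At 1181 to 7954 reads per library, if the values are RPKM, counting error was at most 0.08 log2 on either side (95% Poisson interval). Its log2 ratio to mir-378a was -7.62, -7.98, -6.36 and -6.25 in old libraries, against -7.80, -7.76, -6.32 and -6.14 in young ones, which kept the same split. The group means of this ratio were -7.05 ± 0.88 in old mice and -7.01 ± 0.90 in young mice (n = 4 per group, exact permutation test, two-sided p = 0.83, adjusted p = 0.83). The titles give the numbers only as part of the library names, and a shared day or batch was not tested.

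mir-378b was the least abundant member. Its values were 3.92, 4.32, 4.83 and 4.43 in old 1 to old 4, against 4.29, 4.16, 4.26 and 4.27 in young 1 to young 4. The young libraries fell within the range of the old ones and almost coincided. They averaged 4.38 ± 0.37 in old mice and 4.24 ± 0.06 in young mice (SD, n = 4 each; difference 0.13, SE 0.40, limma adjusted p = 0.995). If the values are RPKM, these were 38.9 to 68.6 reads in old mice and at least 52.8 reads in young mice. The 95% Poisson interval of a single library reached 0.35 to 0.47 log2 to either side, more than the SD of 0.06 between the young libraries, so differences of that size were not detectable at this depth. The log2 ratio of mir-378b to mir-378a was -12.62 ± 0.37 in old mice and -12.89 ± 0.18 in young mice (n = 4 per group, exact permutation test, two-sided p = 0.286, adjusted p = 0.83).

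The precursors with the steadiest ratio to mir-378a were mir-532 (SD of the log2 ratio 0.14 over 8 libraries), mir-128-1 (0.16), mir-501 (0.21), mir-378c (0.21) and mir-27b (0.23), among 358 compared with a median of 0.65. mir-532 measured 12.59, 12.20, 12.89 and 13.15 in old libraries, against 12.70, 12.72, 12.70 and 12.67 in young ones, so that old 2 was lowest and old 4 highest, as for mir-378a. mir-128-1, in an intron of R3hdm1, averaged 10.27 ± 0.34 in old mice and 10.64 ± 0.09 in young mice (SD, n = 4 each). mir-378b was at position 7 with 0.31, mir-206 at position 114 with 0.55, mir-486 at position 143 with 0.60 and mir-378d at position 228 with 0.82. mir-378a and mir-378b each varied little, with SDs of 0.25 and 0.26 over the 8 libraries, both below the 0.31 of their ratio, so the position of mir-378b is no sign of a shared profile. Since mir-378d stood apart from its family, its nearest profiles were looked up after its values were seen: they were mir-331 (SD 0.48), mir-345 (0.55), mir-34b (0.59), mir-500 (0.59) and mir-504 (0.65).

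**Figure D5:**
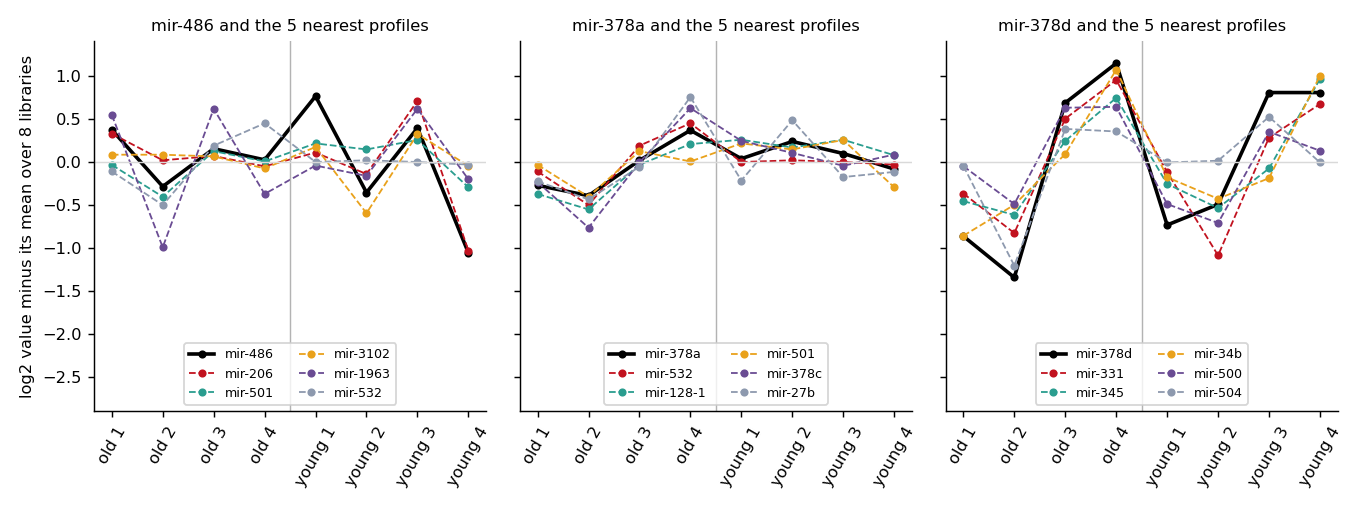
Log2 value minus its own mean over the 8 libraries (vertical axis) by library (horizontal axis, old left and young right of the grey line) for mir-486, mir-378a and mir-378d in black, each with the 5 precursors of smallest log2-ratio SD in colour. mir-486 and mir-206 are both lowest in young 4 but highest in different libraries. mir-378a and mir-532 are lowest in old 2 and highest in old 4. mir-378d is high in libraries 3 and 4 of both groups.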

How the data were processed

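Small RNA of myoblasts from old and young mice was measured in 4 libraries per group. Per the submitters' processing notes, BWA and mm10 were used, in roles and a version not stated; how reads were counted and normalized is not stated either. What the authors deposited are log2 values, written with 2 decimals and floored at 0, for 1181 precursors; each value covers both arms of a precursor. A linear value is 2 to the power of the deposited log2 value, with a listed 0 taken as 0. The planned test was written for these log2 values, and limma 3.58.1 (R 4.3.3, mean-variance trend) was run on them for the 359 precursors that reached a linear value of 10 in 4 or more libraries. P-values were adjusted by Benjamini-Hochberg over all 359, with a threshold of 0.05. Shares and ratios were compared by two-sided exact permutation over 70 arrangements, which can give no p below 0.0286, and adjusted over the 8 such tests. The limma script was tested on simulated data.

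Among low values (up to 12 reads, 111 to 217 per library), the linear value times precursor length was a whole multiple of 1 step in 100% of cases, within 0.1 of a read. Read numbers below rest on the resulting reading of the values as RPKM (reads per kilobase per M library reads), with the step chosen per library to give the best match. Lengths and positions are from RefSeq (GRCm38.p6, the build mm10), which matched 1177 precursors, and overlapping genes from GENCODE M21. Intervals on reads are exact Poisson intervals at 95% and cover counting error only.

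The members and lists were chosen with earlier results of these data known. The named precursors were the members, the 5 precursors whose log2 ratio to mir-486 and to mir-378a had the smallest SD, the kept muscle precursors, up to 2 markers per other cell type, and any precursor sharing a seed with a member. Alternatives were 2 other filters, pseudocounts of 1 and 10, 4 rescalings, 2 variance models, a replicate block, and the omission of each library in turn; leaving out young 4 with old 4 was added after seeing the data. The labels pair no old library with a young one, so the main comparison did not take the numbers as pairs. Old and young libraries with the same number had correlations of -0.06, 0.43, 0.66 and 0.58 between their deviations from the group means. Shares, ratios and plots were made in Python 3.11.15 with scipy 1.17.1, pandas 2.3.3, matplotlib 3.10.9 and numpy 2.4.6. All 8 libraries entered the main comparison.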

Additional observations from a re-analysis of the deposited data

Results flagged for a closer look

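Among 40 sets of 4 libraries of a group (the members, their shares and ratios, and the kept muscle precursors), 3 had a library that stood apart by the gap to its nearest neighbour, where chance gives about 1 in 20. mir-133a-1 was at 14.30 in old 3, above the other old libraries at 12.94 to 13.11, and its copy mir-133a-2, which runs parallel to it, was at 13.69 there. mir-208b was listed at 0.00 in old 4, while the other old libraries were at 3.80 to 4.57. No library stood apart in this way for any of the 6 precursors, their shares or their ratios.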

How the results depend on the processing

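Under all alternatives run, 0 of the precursors compared passed the threshold, and no difference, share or ratio of the 6 precursors did; the lowest adjusted p of a member was 0.850. The signs of the members' differences were not stable. The difference of mir-378a was 0.05, that of mir-378c 0.00 and that of mir-378d 0.01 after rescaling to the total less the mir-486 locus, where the median of all precursors moved to 0.14, against -0.05 as deposited; relative to that median the 3 stayed lower in old libraries. The difference of mir-378a was 0.40 after quantile normalization. With array weights mir-486 and mir-3107 were at -0.09 each, and without both young 4 and old 4 at -0.19 and -0.18.

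With each library left out in turn, the differences ran from -0.20 to 0.41 for mir-486 and for mir-3107, from -0.29 to -0.04 for mir-378a, from -0.02 to 0.28 for mir-378b, from -0.43 to 0.03 for mir-378c and from -0.60 to 0.23 for mir-378d. The differences in share ran from -0.799 to 4.79 percentage points for mir-486, from -1.01 to 6.91 for mir-3107, from -0.166 to 0.0382 for mir-378a and from -0.180 to 0.0347 for the mir-378 precursors. The differences in log2 ratio ran from -0.56 to 0.01 for mir-378a over mir-486, from -0.14 to 0.07 for mir-378c, from -0.31 to 0.26 for mir-378d and from 0.15 to 0.40 for mir-378b over mir-378a. The negative signs of mir-486 and mir-3107 came from leaving out young 4.

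With the replicate number as a block, limma called 0 precursors (39 at an unadjusted p under 0.05, against 4 without it). The smallest limma adjusted p was 0.11 with the block, against 0.995 without it. With the block the difference of mir-486 was 0.13 (limma, adjusted p = 0.947). That of mir-378d, which split by number in both groups, was -0.19 (limma, adjusted p = 0.939). Its SE was 0.28 with the block, against 0.64 without it. By correlation old 2, old 3 and old 4 were each closest to the young library of their own number, while old 1 was closest to young 4. An exact test within 4 pairs can give no p below 0.125. mir-378b had no value with a mean of at least 100, since it fell below that filter. Among the members, counting error limits mir-378b only.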

Other observations

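Among other muscle miRNAs made from introns of muscle genes, 2 were low in old 4, where mir-486 was not. mir-208b, in an intron of the myosin gene Myh7, measured 3.80, 4.21, 4.57 and 0.00 in old 1 to old 4, against 0.38, 4.39, 4.22 and 0.00 in young 1 to young 4. mir-499, in an intron of the myosin gene Myh7b, measured 4.32, 4.60, 3.95 and 1.60 in old libraries, against 3.45, 4.44, 5.42 and 0.36 in young ones. Both were lowest in old 4 among old libraries and in young 4 among young ones, whereas mir-486 in old 4, at 21.37, lay inside the range of the other old libraries. In young 4 mir-486 was also at its lowest, 20.29. The low values of mir-208b and mir-499 were at or near the floor of 0, and their counting error was not computed.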
